A study of Mus musculus with 24 samples.

Results

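Ccr6, Tagap, Rnaset2a and Rnaset2b are 4 immune genes of proximal mouse chromosome 17 (Mmu17). In the reference genome they lie in the segment that the extra minichromosome of Ts65Dn mice carries. They were followed here in all 24 RNA-Seq libraries of the series. They are 4 of the 53 genes listed for the Mmu17 triplicated segment and 4 of the 55385 genes in the count table, of which 36766 had at least 1 count. The genes were selected on measured values of these same libraries, namely their Ts65Dn against wt difference and how much they varied between mice, so the genotype values below are a description and no test is read from them.

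The study isolated hippocampus (HIP) and the entorhinal cortex (EC) of 6 male Ts65Dn mice and 6 male wild-type (wt) littermates, aged 5 to 6 months, and both regions came from the same 12 mice. Ts65Dn mice carry a freely segregating minichromosome that joins a part of Mmu16, homologous to human chromosome 21, to the Mmu17 segment from Pisd-ps2 to Pde10a, which is not. The line was bred on the mixed B6C3B background, in which both genotypes carry C57BL/6J and sighted C3H alleles, and the minichromosome itself arose in DBA/2J males. Each group (wt HIP, Ts65Dn HIP, wt EC, Ts65Dn EC) held 6 libraries, 1 per mouse, with between 23128589 and 40476492 counts each.

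Ccr6 encodes the chemokine receptor for Ccl20 and is known from B cells, Th17 and regulatory T cells and immature dendritic cells, which it draws towards inflamed tissue and mucosa. Tagap encodes a GTPase-activating protein of activated T cells, and the human gene lies in a locus associated with autoimmune disease. Rnaset2a and Rnaset2b encode RNase T2, a lysosomal enzyme that degrades single-stranded RNA and whose human counterpart is mutated in a cystic leukoencephalopathy. None of these genes is a typical neuronal marker, and in bulk brain RNA fewer cells of a type and less RNA per cell cannot be told apart.

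On GRCm38, Rnaset2b lay at chr17:6970634-7011299 on the plus strand, Tagap at chr17:7926000-7934897 on the plus strand, Rnaset2a at chr17:8115445-8148097 on the minus strand and Ccr6 at chr17:8236043-8257141 on the plus strand. All 4 are annotated as protein coding. Tagap has a near-identical copy within the same segment, Tagap1, at chr17:6955011-6961156 on the minus strand.

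How far each gene can be told from its copies was read from the annotated exons, because the reads were 50 bases long and single-ended. Of the 2505 exonic windows of 50 bases in Ccr6, 0 occurred in any other annotated gene, so no exact window was shared. Only exact matches in the reference annotation were searched, not matches with mismatches or sequences of other strains. For Tagap, 57.5% of 3027 windows occurred in another gene, 47.6% in Tagap1 and 19.1% in E430024P14Rik, an antisense gene that covers 23.2% of the Tagap exon bases. For Rnaset2a 78.9% of 3293 windows were shared, and for Rnaset2b 57.2% of 4541. The coding sequences of Rnaset2a and Rnaset2b, 777 bases each, were 100% identical, whereas Tagap and Tagap1 differed at 81 of 1513 aligned coding bases (94.6% identical). The first 50 coding bases shared by both Rnaset2 genes, and a stretch in which Tagap and Tagap1 differ at 1 base (coding bases 1010 to 1059 of Tagap and 383 to 432 of Tagap1), show what a read could and could not separate. Capitals mark the base that differs.
Rnaset2a and Rnaset2b: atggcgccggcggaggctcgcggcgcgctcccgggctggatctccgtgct
Tagap: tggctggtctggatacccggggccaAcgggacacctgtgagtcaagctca
Tagap1: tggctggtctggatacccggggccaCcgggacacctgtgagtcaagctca
A read inside the Rnaset2 stretch cannot be assigned to either gene, and 1 base assigns a read inside the other stretch to Tagap or Tagap1. Counts of Rnaset2a, Rnaset2b and Tagap are therefore uncertain as to their copy, and how multiply aligned reads were counted is not given in the sources used here.

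The 250 bases before the annotated start are shown for Ccr6 (chr17:8235793-8236042, plus strand) and Tagap (chr17:7925750-7925999, plus strand), the 2 genes whose levels moved together from mouse to mouse. The sequences are from RefSeq, GRCm38.p6, and capitals mark matches to the motifs searched.
Ccr6: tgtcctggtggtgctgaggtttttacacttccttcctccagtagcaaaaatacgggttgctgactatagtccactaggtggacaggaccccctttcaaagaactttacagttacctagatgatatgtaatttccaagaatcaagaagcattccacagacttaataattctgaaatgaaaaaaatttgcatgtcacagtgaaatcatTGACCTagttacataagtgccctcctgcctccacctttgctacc
Tagap: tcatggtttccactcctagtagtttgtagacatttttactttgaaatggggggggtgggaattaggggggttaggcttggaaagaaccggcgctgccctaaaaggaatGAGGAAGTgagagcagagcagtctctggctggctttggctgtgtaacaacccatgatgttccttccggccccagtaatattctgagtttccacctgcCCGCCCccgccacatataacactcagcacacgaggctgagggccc
Among 7 motifs searched on both strands of this window, Ccr6 matched 1, the nuclear receptor half-site AGGTCA, which is found in 13.8% of 27025 promoters. Tagap matched 2 motifs, the PU.1-type ETS motif GAGGAAGT (2.44% of promoters) and the GC box GGGCGG (32.9%). The TATA box (TATAAA, in 13% of promoters), the CCAAT box (CCAAT, 34.5%), the AP-1 motif (TGACTCA, 4.43%) and the RUNX motif (TGTGGT, 14.2%) were in neither window, and no motif was found in both.

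Before the genes themselves, 1 mouse stood apart from its label. Over 35 other genes of the Mmu17 segment, the median level relative to the wt mean was 1.35 to 1.46 in HIP and 1.41 to 1.5 in EC of the other 5 Ts65Dn mice. In the library labelled Ts65Dn replicate 3 it was 0.979 in HIP and 0.990 in EC, within the range of the wt libraries (0.904 to 1.04 over both regions). The label was kept, and the main values that rest on this mouse are given with and without it. The hippocampal libraries carried the markers of their label. Hippocampal markers (Prox1, C1ql2, Dsp, Fibcd1, Spink8, Zbtb20) summed to 683 to 1012 CPM (counts scaled to the effective library size) in HIP and 77.2 to 98.9 CPM in EC. Choroid plexus markers, led by Ttr, ranged from 50.8 to 4983 CPM between HIP libraries of both genotypes. Of 4 striatal markers, Drd2, a dopamine receptor gene, was higher in Ts65Dn EC (log2 fold change 1.56 ± 0.328 (SE), edgeR adjusted p = 0.0254). Of 3 blood markers edgeR called 0 in either region, with a median log2 fold change of -0.35 in HIP and -0.73 in EC. At an unadjusted p under 0.05, 0 were lower in HIP and 2 in EC. In EC they summed to 126 to 480 CPM in wt and 97.0 to 224 CPM in Ts65Dn libraries. The part of neighbouring tissue or blood in the values below was not tested.

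The chemokine receptor gene Ccr6 was either nearly undetected or clearly present in a mouse, and each mouse gave the same answer in both regions. In the wt HIP its counts were 24, 2, 0, 0, 35 and 65 in replicates 1 to 6, and in the wt EC of the same mice 21, 1, 0, 1, 33 and 57. Ts65Dn mice had 108, 92, 1, 36, 78 and 24 counts in HIP and 142, 103, 0, 65, 65 and 22 in EC. Thus wt replicates 2, 3 and 4 and the library pair labelled Ts65Dn replicate 3 held at most 2 counts of Ccr6 per library, below the 3 counts taken as the floor of detection, while the other 8 mice held at least 21. The floor corresponded to 0.0707 to 0.130 CPM depending on the library.

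**Figure D1:**
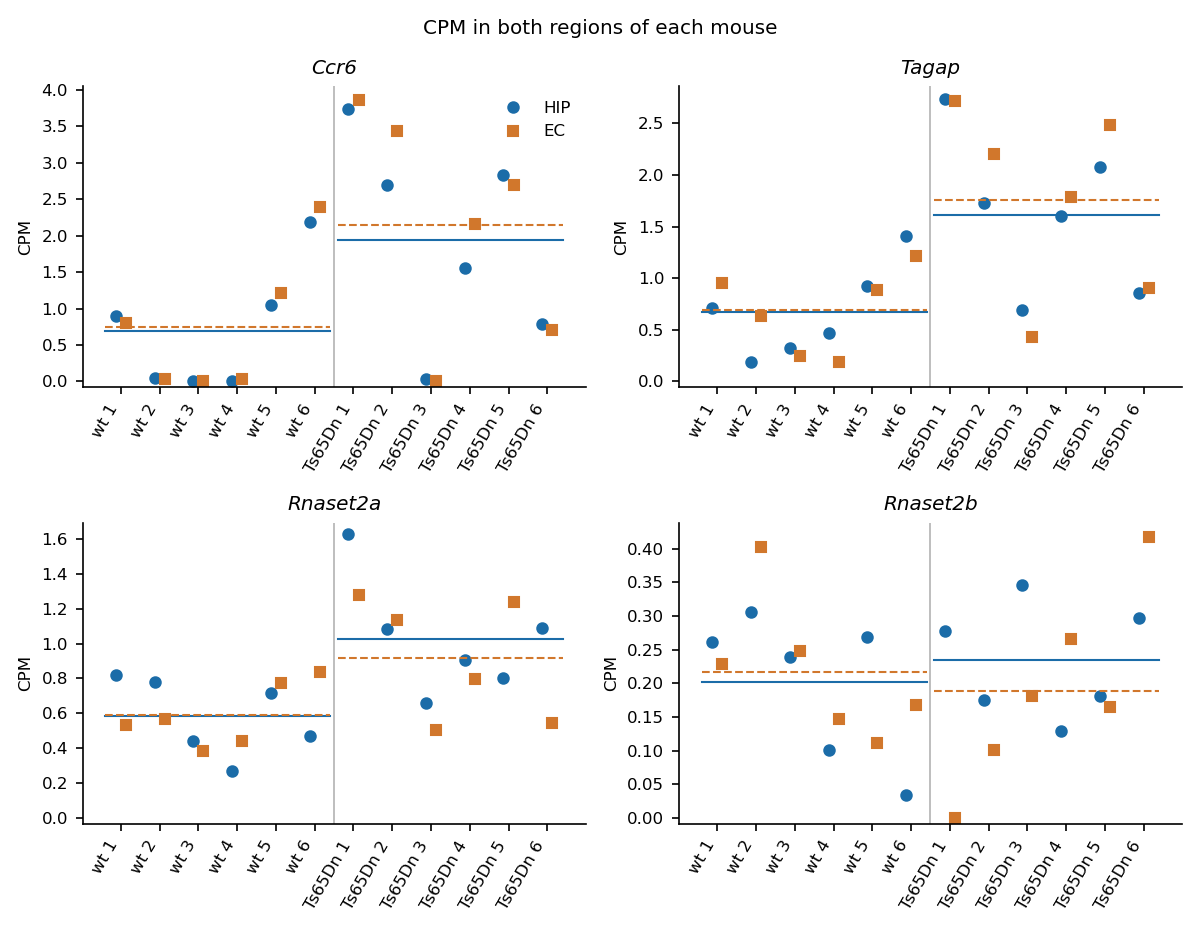
CPM (y axis) of the 4 genes in each mouse (x axis, wt 1 to 6 then Ts65Dn 1 to 6), with HIP as circles and EC as squares and the group mean as a solid (HIP) or dashed (EC) line. For Ccr6 and Tagap the circle and square of a mouse lie close together, and for Ccr6 wt 2, 3 and 4 and Ts65Dn 3 lie at or near 0.

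In CPM, Ccr6 averaged 0.695 ± 0.868 (SD, n = 6) in the wt HIP and 1.94 ± 1.39 (SD, n = 6) in the Ts65Dn HIP. The EC means were 0.747 ± 0.949 (SD, n = 6) in wt and 2.14 ± 1.52 (SD, n = 6) in Ts65Dn. The SD was thus larger than the mean in both wt groups. Ts65Dn means were 2.79-fold (HIP) and 2.87-fold (EC) the wt means, and 3.34-fold and 3.44-fold without Ts65Dn replicate 3. The genotypes overlapped in both regions, since wt replicate 6, at 2.18 CPM in HIP and 2.39 CPM in EC, exceeded Ts65Dn replicates 3, 4 and 6.

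Tagap, the GTPase-activating gene, followed a like order of mice with a smaller range and no library at 0. The wt HIP libraries had 19, 8, 8, 14, 31 and 42 counts in replicates 1 to 6 and the wt EC libraries 25, 19, 9, 5, 24 and 29. In Ts65Dn, HIP libraries had 79, 59, 20, 37, 57 and 26 counts and EC libraries 100, 66, 12, 54, 60 and 28. The highest wt mouse was again replicate 6 and the lowest Ts65Dn mouse replicate 3. Mean levels were 0.670 ± 0.450 CPM in wt and 1.61 ± 0.761 CPM in Ts65Dn in HIP, and 0.687 ± 0.410 and 1.76 ± 0.910 CPM in EC (SD, n = 6 each). In each region 4 of 6 Ts65Dn mice lay above all wt mice, and the exceptions were replicates 3 and 6.

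Rnaset2a, 1 of the genes for lysosomal RNase T2, had 8 to 33 counts in wt and 19 to 47 in Ts65Dn HIP libraries, and 12 to 21 and 14 to 47 in EC. Its means were 0.582 ± 0.221 CPM in wt and 1.03 ± 0.337 CPM in Ts65Dn HIP, and 0.591 ± 0.181 and 0.917 ± 0.348 CPM in EC (SD, n = 6 each). The genotypes overlapped in both regions: Ts65Dn replicates 3 and 5 in HIP, and 3, 4 and 6 in EC, did not exceed the highest wt mouse (0.821 and 0.840 CPM). Rnaset2b stayed between 0 and 13 counts in every library and its group means differed by less than their SDs. Its HIP mean was 0.202 ± 0.108 CPM in wt and 0.235 ± 0.0844 CPM in Ts65Dn, and its EC mean 0.217 ± 0.104 and 0.188 ± 0.143 CPM (SD, n = 6 each). Rnaset2b did not pass the filter on low counts, whereas Ccr6, Tagap and Rnaset2a did in both regions.

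Per kilobase of exon, the 4 genes could be ordered in a common unit. In the wt HIP, Tagap1 was highest at 4.58 ± 0.401 CPM per kb, followed by Ccr6 (0.300 ± 0.374), Tagap (0.218 ± 0.146), Rnaset2a (0.174 ± 0.0662) and Rnaset2b (0.0452 ± 0.0243; SD, n = 6 each). The order was the same in the Ts65Dn HIP, with 5.41 ± 1.10, 0.837 ± 0.600, 0.524 ± 0.247, 0.307 ± 0.101 and 0.0527 ± 0.0189 CPM per kb. In EC it was the same again, from 4.64 ± 0.610 (Tagap1) to 0.0488 ± 0.0233 CPM per kb (Rnaset2b) in wt and from 5.76 ± 0.962 to 0.0423 ± 0.0321 in Ts65Dn. In HIP, Ccr6 and Tagap, and Tagap and Rnaset2a, differed by less than the larger of their SDs between mice in both genotypes. Tagap1, the copy of Tagap, therefore gave many more counts than Tagap in all libraries, 220 to 525 per library.

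The genotype comparison asked how these genes responded to the third copy of the segment. By edgeR's quasi-likelihood test with Benjamini-Hochberg adjustment, 1.04% of the 17355 genes tested in HIP and 2.50% of the 17049 tested in EC were differentially expressed genes (DEGs) at an adjusted p under 0.05. Of the 3 immune genes tested in each region 0 were DEGs, and since the genes were picked on this contrast nothing is read from that count. The log2 fold change of Ccr6 was 1.49 ± 0.893 (SE) in HIP and 1.60 ± 0.875 (SE) in EC, of Tagap 1.27 ± 0.439 and 1.38 ± 0.460, and of Rnaset2a 0.80 ± 0.282 and 0.65 ± 0.284. DESeq2 called 631 of the genes tested in HIP and 1105 of those tested in EC. Of the 3 it called Tagap in EC (log2 fold change 1.37) and no other in either region, and nothing is read from this call either. Without the filter on low counts, the log2 fold change of Rnaset2b was 0.20 ± 0.424 (SE) in HIP and -0.24 ± 0.524 (SE) in EC.

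Within the segment, Ccr6 and Tagap had the largest and next largest log2 fold change of 39 genes tested in HIP and of 40 in EC. Among all genes tested their ranks were 7 and 12 in HIP and 9 and 14 in EC. Rnaset2a ranked 4 in the segment in HIP and 12 in EC. The median log2 fold change of the other segment genes was 0.41 in HIP (36 genes) and 0.48 in EC (37 genes), against a median near 0 over all genes (0.0047 and 0.0046). Of these others, 11 in HIP and 14 in EC rose at the threshold and 0 fell. Without Ts65Dn replicate 3 their medians were 0.48 and 0.57, and 17 and 18 of 37 rose and 0 fell.

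**Figure D2:**
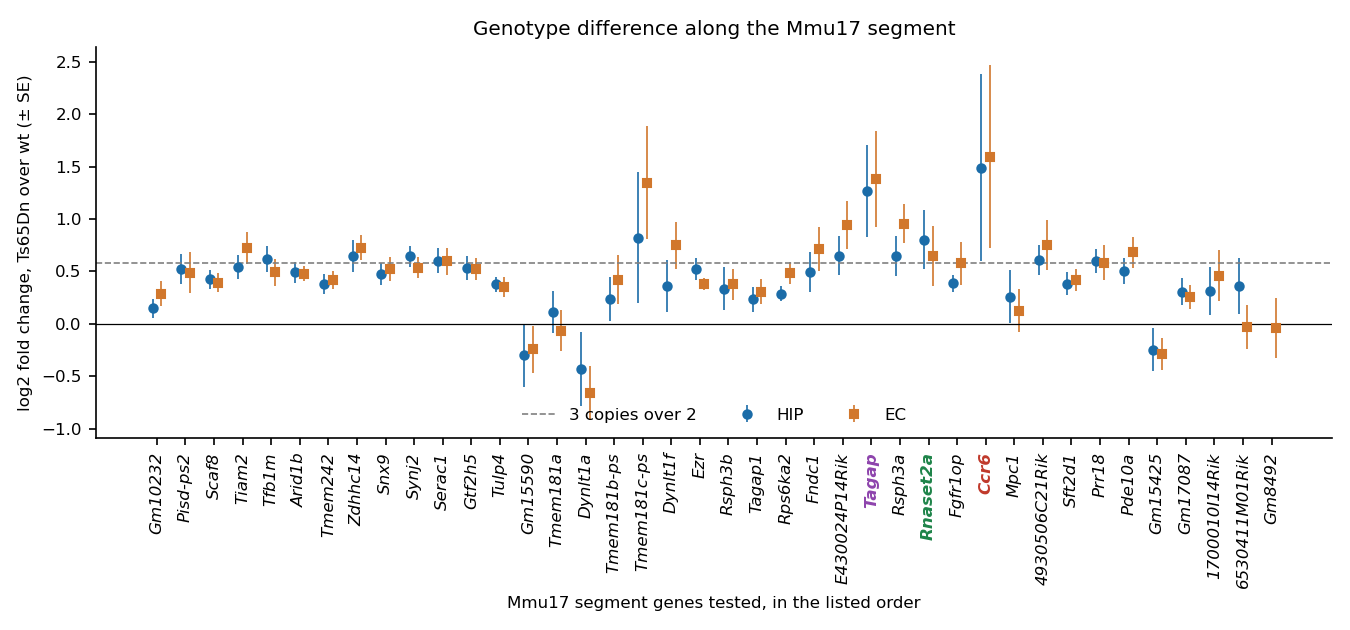
Log2 fold change of Ts65Dn over wt with its SE (y axis) for the genes of the Mmu17 segment tested in HIP (circles) or EC (squares), in their listed order (x axis). The dashed line marks 3 copies over 2; Ccr6 and Tagap stand highest and have among the widest error bars.

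The tested genes next to the immune genes had log2 fold changes from 0.13 to 0.96, and those flanking Ccr6 and Tagap had smaller values than these genes in both regions. Fgfr1op, a centrosomal protein gene that lies between Rnaset2a and Ccr6, rose in HIP (log2 fold change 0.39 ± 0.0813 (SE), edgeR adjusted p = 0.0377) and had 0.58 ± 0.204 in EC (adjusted p = 0.141). Mpc1, the mitochondrial pyruvate carrier gene on the other side of Ccr6, had 0.26 ± 0.252 in HIP and 0.13 ± 0.200 in EC, neither of them called. Rsph3a, a radial spoke gene between Tagap and Rnaset2a, rose in EC (0.96 ± 0.186, adjusted p = 0.0183) and had 0.65 ± 0.189 in HIP (adjusted p = 0.126). E430024P14Rik, antisense to Tagap, rose in EC (0.94 ± 0.230, adjusted p = 0.0455) and had 0.65 ± 0.187 in HIP (adjusted p = 0.119). Around Rnaset2b, Tagap1 had 0.24 ± 0.120 and 0.31 ± 0.118, not called, and Rps6ka2, a ribosomal S6 kinase gene, rose in EC (0.48 ± 0.104, adjusted p = 0.0270) with 0.29 ± 0.0717 in HIP (adjusted p = 0.0813). Without Ts65Dn replicate 3, Fgfr1op was called in EC too (0.72 ± 0.139, edgeR adjusted p = 0.0153), and no other call among these neighbours changed.

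Summing the copies gave values below those of Tagap and Rnaset2a alone and above those of Tagap1 and Rnaset2b alone, in both regions. Tagap and Tagap1 together had a log2 fold change of 0.32 ± 0.122 (SE) in HIP and 0.40 ± 0.115 (SE) in EC, and Rnaset2a and Rnaset2b together 0.68 ± 0.271 and 0.46 ± 0.206. The Tagap sum was carried by Tagap1, which held most of its counts. A mouse left out also moved the values. The log2 fold change of Ccr6 ranged from 1.19 (without Ts65Dn replicate 1) to 2.29 (without wt replicate 6) in HIP, and from 1.30 (without wt replicate 3) to 2.42 (without wt replicate 6) in EC. Without Ts65Dn replicate 3, Ccr6 had 1.75 ± 0.806 and 1.86 ± 0.764, Tagap 1.43 ± 0.426 and 1.58 ± 0.401 and Rnaset2a 0.90 ± 0.281 and 0.77 ± 0.270, in HIP and EC.

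Because HIP and EC came from the same animals, the variation between mice could be told from the variation between libraries. The edgeR test of the mouse terms within genotype, together over both regions, called 8.75% of 18109 genes, and Ccr6 and Tagap were among them. Ccr6 had F = 68.1 and ranked 29 of all genes tested, and Tagap had F = 8.90 and ranked 540. Rnaset2a was not called (F = 2.49, adjusted p = 0.206), and neither was Tagap1 (F = 2.26, adjusted p = 0.247). The choice of the genes drew on this variation, so these F values, calls and ranks, and those within a genotype, describe it and are no test.

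Within a genotype, Ccr6 had F = 69.7 over the wt mice and F = 55.5 over the Ts65Dn mice, and Tagap F = 6.08 and F = 17.9. Without Ts65Dn replicate 3, Tagap had F = 7.35, the lowest of its values when a mouse was left out, and Ccr6 F = 61.1. Of the 37 other segment genes, the mouse term called 18 with all mice and 4 without Ts65Dn replicate 3, so most of these calls rested on that mouse.

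Set on one scale, the genotype difference of Ccr6 was smaller than its spread between mice. On mouse averages of log2 CPM over both regions, the Ts65Dn mean exceeded the wt mean by 1.91 for Ccr6, with an SD between mice of 2.17 within genotype, so the difference was 0.879 SD. It exceeded 1 SD without wt replicate 5 (1.04 SD), wt replicate 6 (1.20 SD) or Ts65Dn replicate 3 (1.52 SD), and stayed below it when any other mouse was left out. Tagap differed by 1.28 with an SD of 0.842 (1.53 SD) and Rnaset2a by 0.66 with an SD of 0.409 (1.62 SD). The median over 35 other segment genes was a difference of 0.45, an SD of 0.245 and 2.21 SD. Without Ts65Dn replicate 3 the values were 1.52 SD for Ccr6, 2.08 for Tagap, 2.14 for Rnaset2a and 3.24 for the other segment genes.

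Among 16592 genes tested in both regions, whose median SD between mice was 0.132, 18 had an SD as large as that of Ccr6, which includes Ccr6 itself, and 3 had a difference as large. In contrast, the HIP minus EC difference of Ccr6 varied within genotype by an SD of only 0.340, so the spread between mice was 6.39 times the spread between the regions of a mouse. The same ratio was 1.30 for Tagap, 0.790 for Rnaset2a and 0.564 for Rnaset2b. This ratio sets an average of both libraries of a mouse against their difference, so a value of 1 marks no boundary. The counts of the Rnaset2 genes were low, at 8 to 47 and 0 to 13 per library.

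**Figure D3:**
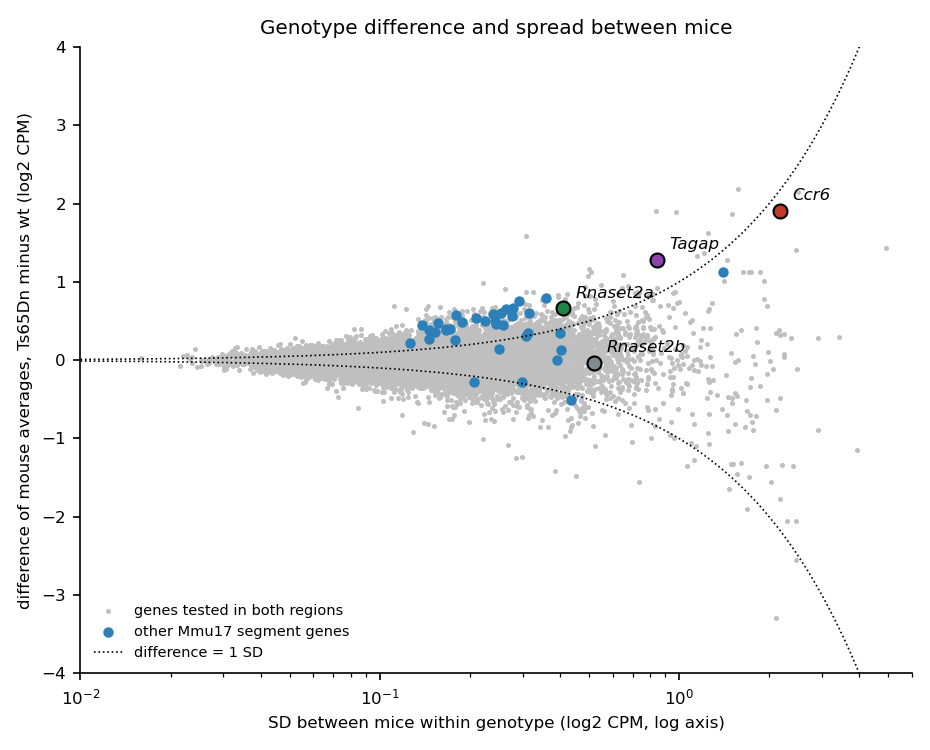
Difference of mouse averages, Ts65Dn minus wt (y axis, log2 CPM), against the SD between mice within genotype (x axis, log2 CPM on a log axis) for genes tested in both regions (grey), other Mmu17 segment genes (blue) and the 4 immune genes (named; Rnaset2b did not pass the filter). Ccr6 lies below the dotted line at which the difference equals 1 SD, and most segment genes lie to its left and above that line.

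By mouse, the median of the other segment genes separated the genotypes except for Ts65Dn replicate 3, though single genes such as Dynlt1a and Mpc1 did not. Ccr6 did not either: it was high in wt replicates 1, 5 and 6 as well, and Ts65Dn replicate 6, at 0.793 CPM in HIP and 0.707 CPM in EC, lay below all 3 of these wt mice. Tmem181c-ps, an unprocessed pseudogene of the segment, was the gene there whose spread came closest, with an SD of 1.41. It was low in wt replicates 3 and 4 and in Ts65Dn replicate 3, at 5 to 13 counts per library, but not in wt replicate 2, where Ccr6 was nearly undetected and Tmem181c-ps had 93 (HIP) and 43 (EC) counts.

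**Figure D4:**
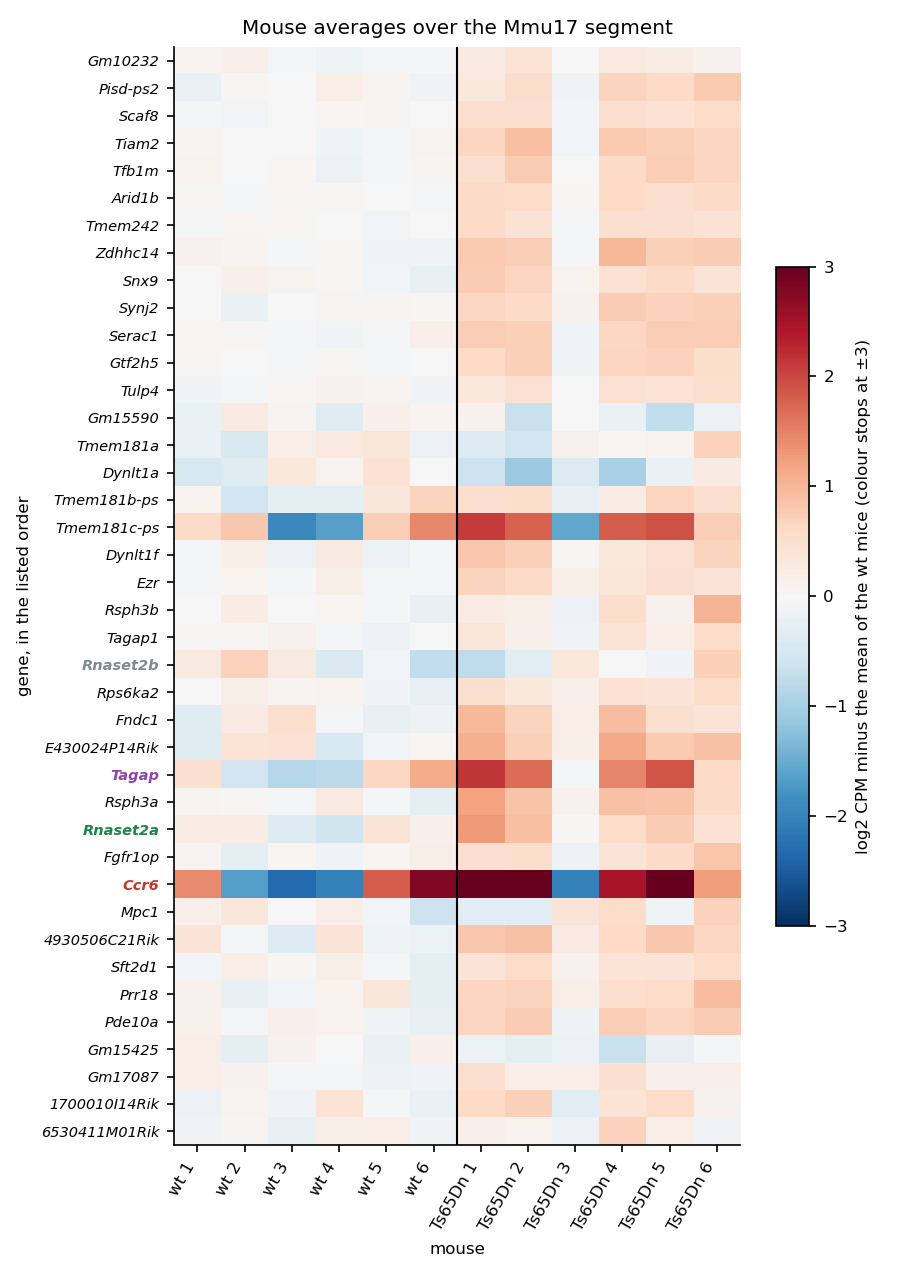
Mouse averages of log2 CPM over HIP and EC minus the wt mean (colour, stopping at 3 in either direction) for the Mmu17 segment genes tested in both regions and Rnaset2b (rows, listed order) in each mouse (columns). Ts65Dn 3 is pale like the wt mice over most rows, and Ccr6, Tagap and Tmem181c-ps change colour within both genotypes.

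Neither the region nor its interaction with genotype was detected for the immune genes. HIP and EC differed in 68.1% of 18109 genes (edgeR with the mouse as a block), but the log2 difference, HIP over EC, was -0.10 ± 0.139 (SE, adjusted p = 0.531) for Ccr6, -0.07 ± 0.168 (adjusted p = 0.717) for Tagap and 0.09 ± 0.162 (adjusted p = 0.639) for Rnaset2a. These 3 genes were thus not called in a comparison that called most genes. The genotype by region interaction was called for 0% of genes by edgeR, with 742 at an unadjusted p under 0.05. Its log2 value was -0.03 ± 0.286 (SE) for Ccr6, -0.01 ± 0.362 for Tagap and 0.21 ± 0.325 for Rnaset2a. DESeq2 also called 0 genes for the interaction.

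The genes with the pattern most like each immune gene were taken by Pearson's r of log2 CPM over the 24 libraries after centring within region, among 16592 other genes. The libraries come in pairs from 12 mice, so the r values are a description. The gene most like Ccr6 was AC166110.4 (r = 0.984), a lincRNA at chr17:13330748-13333842 on the plus strand, outside the listed segment. Next came the processed pseudogenes Gm12892 (r = 0.931, chromosome 4) and Gm18867 (r = 0.910, chromosome 3), then Tagap (r = 0.906) and Tmem181c-ps (r = 0.895). After centring within region and genotype the same 5 genes led, with r from 0.875 to 0.984, so their likeness to Ccr6 did not rest on the difference between the labelled genotypes. This centring kept the label of Ts65Dn replicate 3, and r without that mouse is not given here.

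AC166110.4 was low in the same mice as Ccr6. It had 32, 1, 0, 2, 47 and 84 counts in wt HIP replicates 1 to 6 and 138, 114, 0, 52, 97 and 32 in the Ts65Dn HIP. In EC it had 81, 2, 3, 1, 75 and 161 counts in wt and 351, 323, 1, 217, 260 and 114 in Ts65Dn. In wt replicates 2, 3 and 4 and Ts65Dn replicate 3 it thus had at most 3 counts per library, and elsewhere at least 32. Gm12892, on another chromosome, was lower in the same mice without being absent, with 188, 184 and 320 counts in wt HIP replicates 3, 4 and 2 and 210 in Ts65Dn HIP replicate 3, against 730 to 1013 in the other HIP libraries.

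**Figure D5:**
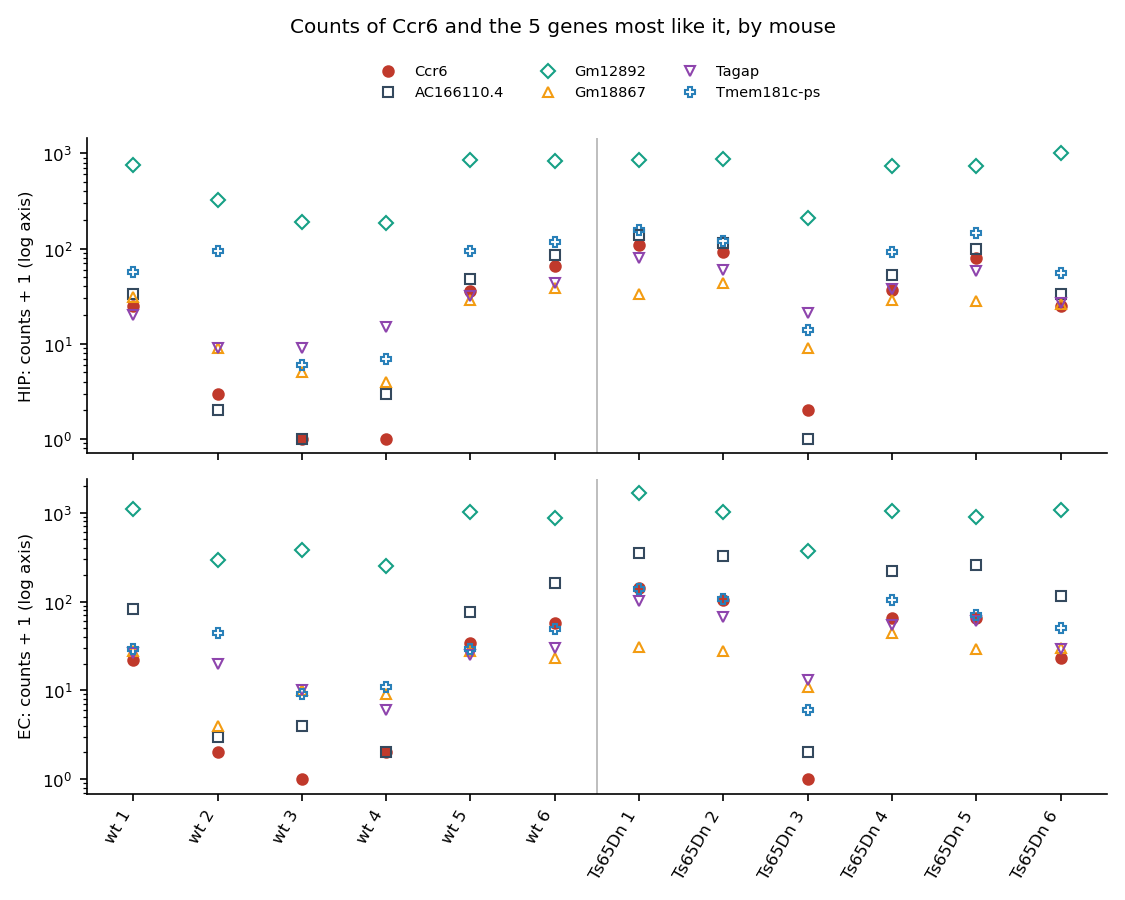
Counts plus 1 (y axis, log axis) of Ccr6 (filled circles) and the 5 genes most like it (open markers) in HIP (top) and EC (bottom) of each mouse (x axis). In wt 2, 3 and 4 and Ts65Dn 3, Ccr6 and AC166110.4 drop to 3 counts or fewer, and Gm12892 and Gm18867 are lower than in the other mice.

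For Tagap, the most alike genes were Ccr6 (r = 0.906), AC166110.4 (0.902), Mpc1-ps (0.841, chromosome 12), Gm14292 (0.831, chromosome 2) and Gm12892 (0.807). Mpc1-ps is by its name a pseudogene of Mpc1, a gene of the segment, so reads may be split between them. After centring within genotype too, the Mmu17 gene Glo1 (0.822), which encodes glyoxalase 1, was among the 5 most alike beside Ccr6 (0.900), AC166110.4 (0.899) and Gm14292 (0.829). Glo1 lies outside the listed segment.

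Rnaset2a was most like Agpat4 (r = 0.834), Caskin2 (0.819), Eng (0.798), Tmem184b (0.796) and Tspan14 (0.792), and after centring within genotype like Agpat4 (0.777), Rab3b (0.75), Zfp414 (0.741), Tmem181c-ps (0.732) and Caskin2 (0.727). Agpat4, an acyltransferase gene of phospholipid synthesis, is on Mmu17 beyond the segment. For Rnaset2b no r exceeded 0.706, the value of Stxbp3-ps, followed by Il15 (0.640), Zfp820 (0.622), Hint3 (0.615) and Atp6v0c (0.612). With genotype centred, Unkl (0.647), Rnps1 (0.642) and Thoc7 (0.631) joined Stxbp3-ps (0.693) and Zfp820 (0.635). At these counts a correlation of Rnaset2b is no finding.

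Within region, Ccr6 and Rnaset2a had r = 0.758 and Tagap and Rnaset2a r = 0.729, falling to 0.695 and 0.577 when genotype was centred as well. Rnaset2b had r = -0.36 with Ccr6, -0.35 with Tagap and -0.10 with Rnaset2a. Tagap and Tagap1 had r = 0.396, and 0.0959 with genotype centred, so the copy did not show the mouse pattern of Tagap.

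Other chemokine receptors put the level of Ccr6 in context. Per kilobase of exon, Ccr6 ranked 8 of 23 receptors in wt and 6 of 23 in Ts65Dn libraries of both regions. Cx3cr1, the fractalkine receptor of microglia, had 13.8 CPM per kb in the wt HIP. Ackr1, an atypical receptor, was listed highest at 16.1, but its gene span overlaps that of Cadm3 on the same strand, so its counts are uncertain. Ccr8 had 0 counts in all libraries. Of the other 22 receptors, 12 were tested in HIP and 10 in EC, and 0 were DEGs in either region by edgeR or DESeq2, with 2 at an unadjusted p under 0.05 in HIP and 0 in EC. Their median log2 fold change was 0.16 in HIP and 0.0044 in EC, and 0.09 and -0.05 without Ts65Dn replicate 3.

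Ccl20, the ligand of Ccr6, had 7 counts in all 24 libraries together and was at 0 in 18 of them, so its level could not be compared. Of 26 chemokine ligand genes, 10 were tested in HIP and 11 in EC, and edgeR called 0. DESeq2 called 1 lower in EC, and at an unadjusted p under 0.05, 1 was higher and 1 lower in HIP and 1 higher and 3 lower in EC. Their median log2 fold change was 0.07 in HIP and -0.05 in EC. The mouse term called 4 of 11 (Ccl6, Ccl27a, Ccl28 and Cxcl12). The share over all genes tested was 8.75%, for this list and those below. The most abundant was Cx3cl1 (fractalkine), at 550 ± 67.0 CPM in the wt HIP (SD, n = 6), and Ccl19 had 0 counts.

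Lymphocyte genes, in which Ccr6 and Tagap are best known, were near the limit of detection. Of 22 T cell and Th17 genes, 6 were tested in HIP and 8 in EC and edgeR and DESeq2 called 0 (1 higher in EC and 0 in HIP at an unadjusted p under 0.05, median log2 fold change 0.15 and 0.12). The defining T cell gene Cd3e had 26 counts over all libraries and was at 0 in 9, and Il17a, the cytokine of Th17 cells, had 0. Zap70, the most abundant of the list, had 1378 counts in all and differed between regions (log2 1.80, HIP over EC), unlike Ccr6. Over the list the summed level was 8.5 to 11.5 CPM in wt and 9.12 to 12.9 CPM in Ts65Dn HIP libraries, and 6.25 to 8.24 and 6.87 to 9.49 CPM in EC.

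The CD3 genes Cd3d, Cd3e and Cd3g were added up by mouse over both regions, a sum chosen after the values were seen. It was 4, 4, 4, 5, 3 and 5 counts in wt replicates 1 to 6 and 12, 10, 2, 11, 10 and 6 in Ts65Dn replicates 1 to 6. Raw CD3 counts, not scaled to library size, were thus higher in the 5 Ts65Dn mice other than replicate 3 than in the wt mice. They cover 3 genes of a list of 22. Over the same mice Ccr6 had 45, 3, 0, 1, 68 and 122 counts in wt and 250, 195, 1, 101, 143 and 46 in Ts65Dn. Among Ts65Dn mice, replicates 3 and 6 were lowest in both, whereas the wt CD3 sums, at 3 to 5 counts, were too low to order the mice. A sum of B cell genes without Ighm was 8, 10, 9, 10, 13 and 10 counts in wt and 12, 8, 22, 6, 9 and 7 in Ts65Dn. This B cell sum was highest in Ts65Dn replicate 3, where Ccr6 was nearly undetected. The log2 fold changes of the T cell genes tested ran from -0.20 (Lck) to 0.37 (Rhoh) in HIP, none of them called by edgeR, and Cd28 had -0.23 in EC, also not called. The part of T cells in the Ts65Dn levels of Ccr6 and Tagap was not tested.

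Of 10 B cell genes 3 were tested in each region and 0 were called by edgeR or DESeq2, also at an unadjusted p under 0.05, with a median log2 fold change of 0.28 in HIP and 0.21 in EC. Ighm, the immunoglobulin mu chain, was the most abundant with 11597 counts and Blk the least with 9. Summed over the list, HIP libraries had 13.8 to 24 CPM in wt and 11.8 to 27.2 CPM in Ts65Dn. The mouse term called 0 of 8 T cell and 0 of 3 B cell genes by edgeR (4 and 1 at an unadjusted p under 0.05), and 0 and 1 by DESeq2.

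Of 13 myeloid and dendritic cell genes, 10 were tested in HIP and 13 in EC and 0 were called by either tool (1 higher in HIP at an unadjusted p under 0.05, 0 in EC), although the mouse term called 4 of 13 (S100a8, S100a9, H2-Aa and H2-Ab1). The median log2 fold change was 0.43 in HIP and 0.04 in EC, or 0.26 and -0.07 without Ts65Dn replicate 3, and the extremes of abundance were Lyz2 (7941 counts) and Ly6c2 (221 counts). Summed over the list, Ts65Dn HIP replicates 1 to 3 had 44.9, 51.3 and 61.8 CPM. Replicates 4 to 6 had 20.1, 24.3 and 25.5 CPM, against 23.3 to 38.7 CPM in wt HIP libraries. In EC the sums were 27.3 to 55.3 CPM in wt and 25.5 to 59.6 CPM in Ts65Dn. Among 14 microglial genes, P2ry12, a purinergic receptor of resting microglia, fell by edgeR in both regions (log2 fold change -0.27 ± 0.0573 (SE), adjusted p = 0.0422 in HIP, and -0.45 ± 0.0910 (SE), adjusted p = 0.0226 in EC). No other microglial gene was called by genotype, the mouse term called 4 of 14 (Aif1, P2ry12, C1qb and Siglech), and the median was -0.05 and -0.14. Csf1r was the most abundant (75481 counts) and Aif1 the least (4629 counts).

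For the partners of Tagap, 18 genes of small GTPases of the actin cytoskeleton, their GTPase-activating proteins and inhibitors were tested in each region. Rhoa, a GTPase of actin stress fibres, rose in HIP (0.21 ± 0.0397 (SE), edgeR adjusted p = 0.0277). Arhgap5, a GTPase-activating gene, fell in both (-0.31 ± 0.0683, adjusted p = 0.0498 in HIP, and -0.46 ± 0.0677, adjusted p = 0.00519 in EC), and Arhgap15, which acts on Rac, fell in EC (-0.25 ± 0.0558, adjusted p = 0.0309). The median was 0.03 in HIP and -0.05 in EC, and the mouse term called 0 of 18 by edgeR (5 at an unadjusted p under 0.05, 3 by DESeq2). Cdc42 was the most abundant (241083 counts) and Rac2 the least (1906 counts).

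For Rnaset2, 24 genes of RNases and lysosomal nucleic acid handling were taken, of which 22 were tested in HIP and 21 in EC. In HIP edgeR and DESeq2 called 0, with 3 higher and 0 lower at an unadjusted p under 0.05. In EC Tlr9, a receptor for DNA in endosomes, rose (0.54 ± 0.134 (SE), edgeR adjusted p = 0.0484) and Lamp2, a lysosomal membrane protein gene, fell (-0.25 ± 0.0470 (SE), edgeR adjusted p = 0.0168). The call of Tlr9 was lost without Ts65Dn replicate 3, when 0 of the list were higher and 1 lower. The median log2 fold change was 0.03 in HIP and -0.01 in EC. Ctsb, which encodes cathepsin B, was the most abundant (475734 counts) and Tlr8 the least (111 counts), and the mouse term called 2 of 22 (Ang and Rnaseh2c).

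Interferon-stimulated genes, 20 in all, gave 0 calls by edgeR and 2 higher by DESeq2 in each region, with 9 higher in HIP and 5 in EC at an unadjusted p under 0.05 and 0 lower. Their median log2 fold change was 0.46 in HIP and 0.12 in EC. Without Ts65Dn replicate 3, edgeR called 2 in HIP and 1 in EC. Summed over the list, Ts65Dn HIP replicates 1 and 2 stood apart at 206 and 222 CPM. Ts65Dn HIP replicates 3 to 6 had 141 to 165 CPM and wt HIP libraries 137 to 155 CPM. In EC the sums were 131 to 149 CPM in wt and 134 to 162 CPM in Ts65Dn. The mouse term called 6 of 20 (Ifit3, Ifit3b, Ifi44, Irf7, Usp18 and Stat2), against 8.75% of all genes tested. Cmpk2 was the most abundant (21134 counts) and Oas1a the least (262 counts). Besides those of receptors and myeloid genes, the list medians that moved by over 1.5 times without Ts65Dn replicate 3 were those of ligands (-0.08 in EC), T cell genes (0.18 in EC), B cell genes (0.34 in EC), microglial genes (-0.03 in HIP) and RNases (0.01 in HIP and -0.02 in EC).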

How the data were processed

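The 24 libraries, 1 for each region of 6 Ts65Dn and 6 wt mice, were grouped by their labels. The authors aligned single-end reads of 50 bases to GRCm38 (Ensembl release 99) with Hisat2 and deposited raw HTSeq-count counts per gene, without normalization, for 55385 genes; the versions and strand setting are not given in the sources used here. Per the labels, libraries were stranded. The deposited tables of the authors' own comparisons (DESeq2 and FCROS fold changes and p-values) and the Ts66Yah libraries were not used here. No column of counts was left out (0 unused). Gene identifiers were looked up in GENCODE vM21 (GRCm38), where 99.6% of them were found.

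The 4 genes, the lists, the tests and most alternatives were chosen with earlier results of these data known. Genotype was tested within each region with edgeR 4.0.16 in R 4.3.3 (glmQLFit, filterByExpr, TMM, Benjamini-Hochberg adjusted p under 0.05) on 6 against 6 libraries, and region, interaction and mouse terms on all 24 with a term for each mouse. CPM used TMM-scaled totals, log2 CPM a prior count of 2, and 3 counts were the floor of detection. The floor covers counting error only, whereas SDs and SEs include the spread between mice. Nothing in the labels separates biological from technical spread beyond 1 library per mouse and region. Exact shared windows of 50 bases came from the annotated exons (Biopython 1.88), promoter sequence from RefSeq. Named genes were the 4 genes, Tagap1, the nearest tested segment gene on either side, the 5 genes highest in Pearson's r under each centring, and from each list Ccl20, up to 6 called genes and the most and least abundant. Ackr1, Cx3cr1, Ccr8, Cd3e, Il17a and other list genes named for the mouse term or as defining markers were named after their values were seen. Alternatives were DESeq2 1.42.0, its size factors, no filter, summed copies, a replicate block, other prior counts and leaving out each mouse. The edgeR fits of genotype (with HIP libraries), region, interaction and mouse terms were tested on simulated data. The genotype fit recovered 63% of 200 genes changed 1.5-fold and 98% of 200 changed 3-fold, so a gene not called may still have changed 1.5-fold. Library totals were 23128589 to 40476492 counts. Some results of single genes are not reported here.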

Additional observations from a re-analysis of the deposited data

How the results depend on the processing

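Each log2 fold change of Ccr6, Tagap and Rnaset2a kept its direction under all settings run, and 0 of the 12 fits that left out a mouse called any of them (Ccr6 1.19 to 2.29 in HIP and 1.30 to 2.42 in EC, Tagap 1.05 to 1.63 and 1.19 to 1.61, Rnaset2a 0.63 to 0.92 and 0.52 to 0.77). DESeq2 called Tagap in EC (1.37). The genes were picked on this contrast, so this call and the kept direction are a description and no test. DEGs numbered 181 in HIP and 426 in EC, 631 and 1105 by DESeq2, and 275 in EC with no filter. With a mouse left out they ranged from 54 (without Ts65Dn replicate 6) to 318 (without replicate 3) in HIP and from 90 (without Ts65Dn replicate 1) to 685 (without replicate 6) in EC. With the replicate block, DEGs fell to 29 in HIP and 36 in EC and no immune gene was called (Ccr6 2.01 and 1.90). Same-numbered wt and Ts65Dn mice share only a number: their deviations correlated from -0.22 to 0.16 in HIP and from -0.10 to 0.17 in EC, and 1 of 6 wt libraries in each region correlated best with its own number. Regions of the same mouse correlated at 0.23 to 0.49.

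The mouse term called 1584 genes, 4183 with no filter, 2890 by DESeq2, 786 with wt mice only, 572 with Ts65Dn mice only and 1226 to 1657 with a mouse left out. Ccr6 was called in all of these, and Tagap in all but the wt mice alone (F = 6.08). The choice of the genes drew on this variation, so these calls are a description and no test. Ccr6 kept F from 54.3 to 75.2 and Tagap from 7.35 to 14.6 with a mouse left out. The interaction called 0 genes, 37 with no filter and again 0 with any mouse left out. Values near 0 changed sign, namely the interaction of Tagap by DESeq2 (0.0024), and, with a mouse left out, the interaction of Ccr6 (-0.089 to 0.055) and Tagap (-0.27 to 0.16) and the region difference of Tagap (-0.16 to 0.060). The genotype difference in SD ranged from 0.678 to 1.52 for Ccr6, 1.34 to 2.08 for Tagap, 1.44 to 2.14 for Rnaset2a and -0.38 to 0.24 for Rnaset2b. The causes were not tested. Rnaset2b had 0 to 13 counts per library, and these counts are uncertain as to their copy.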
